A study of Mus musculus with 12 samples.

Results

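The comparison described here is the difference between the effects of an H6pd knockout in the mouse Soleus and in the Tibialis Anterior (TA). For each gene it is the knockout (KO) minus wild-type (WT) difference in soleus, less the same difference in TA, on the log2 scale. A positive value means that the soleus effect lay above the TA effect and a negative value that it lay below. All 12 of the 12 arrays of the series entered, 3 per genotype and muscle, and 13009 genes were tested. The mice were 4 weeks old and weaned, their muscle had no overt myopathy on histology, and the labels call the arrays biological replicates. The allele, the strain, the cells that carry the deletion and whether a soleus and a TA of equal number came from the same mouse are not given in the sources used here. H6pd, the targeted gene, gave 5.57, 6.12 and 7.11 on the WT soleus arrays, 4.19, 4.41 and 6.10 in KO soleus, 6.37, 6.26 and 7.92 in WT TA and 6.89, 6.49 and 7.49 in KO TA (log2 signal). KO and WT overlapped in both muscles, the difference of effects was -1.47 (SE 0.88, limma adjusted p = 0.896), and whether its probe set lies in the deleted part is not given, so this signal does not check the labels.

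As background, H6pd encodes hexose-6-phosphate dehydrogenase, which makes NADPH inside the lumen of the endoplasmic reticulum (ER) and so supplies reductases that work there, among them the enzyme that regenerates active glucocorticoid. The ER lumen is where secreted and membrane proteins fold, and a load of unfolded protein there raises chaperones through the unfolded protein response. Soleus is a postural muscle rich in slow and oxidative fibres, whereas TA is a mostly fast, glycolytic muscle.

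The labelled muscles differed in their myosins in the direction their names imply. Myh7, the slow myosin heavy chain, averaged 15.46 in WT soleus and 6.01 in WT TA, and Myh4, the fastest one, averaged 11.46 and 15.91. The first principal component, with 46.6% of the variance, separated the muscles. On the component after it, with 18.6%, the arrays numbered 3 of all 4 groups (-33.9 to -23.8) stood apart from the other 8 (5.8 to 21.9). The main results were also computed without the arrays numbered 3.

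The knockout effect differed between the muscles in 5 genes at a limma adjusted p under 0.05 over all 13009, which is 0.0384% of them. In 3 genes the soleus effect lay above the TA effect (0.0231%) and in 2 below it (0.0154%). The long non-coding RNA 2310065F04Rik, Mss51 and Prima1 fell in KO TA, and Bhlha15 and Arv1 rose there. In soleus none of the 5 passed the test. An unadjusted p under 0.05 was found for 743 genes (5.71%), whereas the soleus effect gave 1140 (8.76%) and the TA effect 2222 (17.1%). The standard error of the difference was 0.25 for the median gene, against 0.18 for the effect in either muscle, and its 95% interval reached a median of 0.57 to either side. Of the 250 genes with a difference over 1 in size, 246 were not past the test, up to 3.88 for Ighm (SE 0.66).

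**Figure D1:**
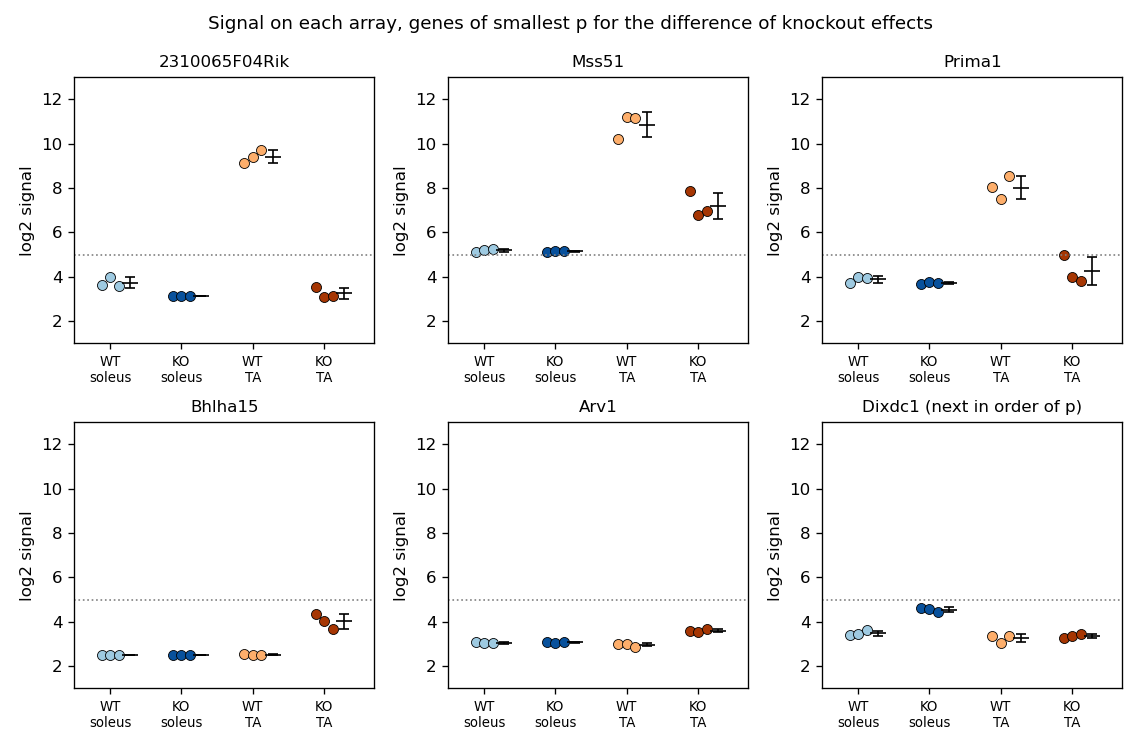
Log2 signal on each array (points, with group means) for the 5 genes past the test of the difference of knockout effects and for Dixdc1, the next in order of p. The 3 KO TA arrays lie apart from the 3 WT TA arrays for the 5 genes, whereas Dixdc1 differs in soleus. Soleus KO and WT overlap for the 5 except 2310065F04Rik, whose KO soleus mean lies 0.61 below WT without overlap, under log2 5.

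2310065F04Rik, also known as linc-Myh, is a long non-coding RNA known as a regulator of fast fibre genes. It lies among the skeletal myosin heavy chain genes at chr11:67112461-67120080 (GRCm38.p6, minus strand). Its signal was 9.14, 9.42 and 9.70 on the WT TA arrays but 3.53, 3.10 and 3.15 in KO TA. In soleus it was 3.64, 4.01 and 3.57 in WT and 3.15, 3.12 and 3.14 in KO. KO and WT did not overlap in either muscle (12% of all genes did not overlap in soleus and 23.2% in TA), and the WT TA arrays were the only ones above log2 5, taken here as the background line. The effect was -6.16 in TA (adjusted p = 1.22e-07) and -0.61 in soleus (adjusted p = 0.309), a difference of 5.55 (SE 0.25, 95% interval 4.99 to 6.11, limma adjusted p = 1.04e-05). Because soleus and KO TA lay under log2 5, the fold changes are bounded by background. With all values under 5 set to 5, an alternative chosen after the data were seen, the difference was 4.42. The gene kept its call under all 25 alternatives in which it was tested, with adjusted p from 1.45e-06 to 0.0095, and it was not tested where a mean above log2 5 was required.

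The 250 bases before its start are shown because this was the transcript with the smallest p, from RefSeq (GRCm38.p6, chr11:67120081-67120330, minus strand, 5′ to 3′).
2310065F04Rik: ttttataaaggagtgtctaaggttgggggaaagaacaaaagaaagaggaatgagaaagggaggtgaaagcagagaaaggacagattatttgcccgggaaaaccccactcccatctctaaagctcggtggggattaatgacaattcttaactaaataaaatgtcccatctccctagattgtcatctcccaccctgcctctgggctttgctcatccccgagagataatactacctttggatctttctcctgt
The window was searched on both strands for CCAAT and CCACG with any 9 bases between them, the ER stress response element bound by ATF6 with NF-Y, and for CANCTG, one form of the E-box CANNTG that basic helix-loop-helix factors bind. Other forms of the E-box were not searched. It held no match to either, so no letter is in capitals. Of 32851 promoter windows of the same length, 37 held the first (0.113%) and 14723 the second (44.8%).

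The neighbouring myosin genes are coding genes of the same cluster and were examined after the result for 2310065F04Rik was known. Myh2, the myosin of fast oxidative fibres, averaged 15.79 in WT soleus and 15.81 in KO soleus but rose from 12.85 to 14.50 in TA (TA effect 1.64, adjusted p = 0.011). Its difference of effects was -1.63 (SE 0.35, adjusted p = 0.351). The soleus levels of Myh2 lay near the highest deposited value (16.36), and whether a rise could be measured there was not tested. Myh3, the embryonic myosin, had an effect of 2.94 in soleus (adjusted p = 0.127) and 0.98 in TA (adjusted p = 0.428), a difference of 1.96 (SE 0.79, adjusted p = 0.824). Myh1 differed by -0.38, Myh4 by 0.18 and the perinatal Myh8 by -1.35, with adjusted p from 0.83 to 0.99. Myh4 had the same value on all 3 WT TA arrays after quantile normalization, which left it no spread there. Of the 6 tested genes of the cluster, 2310065F04Rik passed the test of the difference, and Myh2 passed it too without WT TA replicate 3 or without the arrays numbered 3.

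Mss51, a zinc-finger protein of skeletal muscle linked to mitochondrial metabolism, was the only one of the 5 with signal at or above log2 5 in both muscles. It gave 10.21, 11.21 and 11.17 in WT TA and 7.86, 6.77 and 6.98 in KO TA. In soleus the WT arrays gave 5.13, 5.23 and 5.23 and the KO arrays 5.12, 5.17 and 5.17, close to the background line. The TA groups were far apart and the soleus groups overlapped. The effect was -3.66 in TA and -0.05 in soleus, a difference of 3.61 (SE 0.44, 95% interval 2.63 to 4.60, adjusted p = 0.0289).

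Prima1, the membrane anchor of acetylcholinesterase, gave 8.05, 7.51 and 8.53 in WT TA and 5.0, 4.01 and 3.80 in KO TA. It lay between 3.68 and 4.01 on the 6 soleus arrays, under the background line in both genotypes. The effect was -3.76 in TA and -0.17 in soleus, a difference of 3.59 (SE 0.45, 95% interval 2.59 to 4.58, adjusted p = 0.0289). A dimmer probe set of Prima1, which did not pass the filter on low signal, lay between 2.05 and 2.08 in all 4 group means.

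Bhlha15, also called MIST1, is a transcription factor of secretory cells and a known target of the unfolded protein response factor XBP1. It gave 4.34, 4.04 and 3.69 on the KO TA arrays and between 2.49 and 2.54 on the other 9 arrays. It therefore passed the filter on low signal (above log2 2.76 on at least 3 arrays) only through KO TA, where it is high, so its call is to be read as a description. The difference was -1.50 (SE 0.17, 95% interval -1.88 to -1.12, adjusted p = 0.0223), with an effect of 0.01 in soleus and 1.51 in TA. Arv1, an ER protein of sterol transport and of glycosylphosphatidylinositol anchor assembly, gave 3.60, 3.55 and 3.67 in KO TA, and 3.02, 3.01 and 2.88 in WT TA. It lay between 3.03 and 3.09 on the 6 soleus arrays. Its difference was -0.61 (SE 0.06, 95% interval -0.75 to -0.47, adjusted p = 0.0116), the smallest of the 5. Both genes lay under log2 5 on all 12 arrays, where replicates differed little, and a second probe set of Bhlha15 below the filter averaged 2.68 in KO TA and 2.52 to 2.54 in the other groups.

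The promoter window of Bhlha15 is shown because it encodes a factor of the E-box binding class, and that of Derl3 because this ER degradation gene had the same pattern over the groups (GRCm38.p6, chr5:144190036-144190285 and chr10:75893148-75893397, both plus strand, 5′ to 3′, RefSeq). Derl3 was chosen for this after its values were seen. Capitals mark the motif matches.
Bhlha15: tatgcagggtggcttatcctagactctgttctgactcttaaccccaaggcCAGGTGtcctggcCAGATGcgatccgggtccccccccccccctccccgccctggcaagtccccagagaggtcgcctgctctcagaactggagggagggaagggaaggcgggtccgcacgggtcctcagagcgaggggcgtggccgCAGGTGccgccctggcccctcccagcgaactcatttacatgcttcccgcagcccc
Derl3: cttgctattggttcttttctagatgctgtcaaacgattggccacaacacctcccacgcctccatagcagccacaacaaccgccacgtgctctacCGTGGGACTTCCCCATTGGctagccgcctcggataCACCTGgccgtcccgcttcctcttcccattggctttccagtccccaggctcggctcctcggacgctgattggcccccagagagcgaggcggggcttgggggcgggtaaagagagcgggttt
Bhlha15 held 3 matches to CANCTG and 0 to the ER stress response element. Derl3 held 1 match to the ER stress response element, on the reverse strand, and 1 to CANCTG, and the 2 matches did not overlap. Derl3, which moves misfolded proteins out of the ER, gave 3.66, 6.00 and 3.99 in KO TA and between 2.56 and 2.59 on the other 9 arrays. It too passed the filter through KO TA alone. Its KO TA arrays spread widely, and the difference of -1.98 (SE 0.65, 95% interval -3.44 to -0.52) had an adjusted p of 0.719.

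Except for 2310065F04Rik, the calls depended on the fit. With genotype and number together as a block, as if equal numbers shared a mouse, 3 genes passed, of which 2310065F04Rik was the only one of the 5, and D930003E18Rik (adjusted p = 0.0077) and Alox12 (adjusted p = 0.0356) were the others. With the number alone as a block, 4 genes passed, and Mss51 (adjusted p = 0.0704) and Prima1 (adjusted p = 0.0607) were lost. Without the arrays numbered 3, 8 genes passed. Of the 5, 2310065F04Rik (adjusted p = 0.0095) and Bhlha15 (0.0164) kept their call, while Mss51 (0.385), Prima1 (0.253) and Arv1 (0.0837) lost it, and D930003E18Rik, Alox12 and Myh2 were among those gained. Leaving out single arrays gave 1 gene without WT soleus replicate 3, 3 without WT soleus replicate 2, KO TA replicate 3 or WT TA replicate 1, 8 without WT soleus replicate 1, 10 without KO TA replicate 2, 13 without WT TA replicate 3 and 20 without KO TA replicate 1. Over the alternatives that tested them, Mss51 kept its call in 13 of 26, Prima1 in 11 of 25, Bhlha15 in 16 of 24 and Arv1 in 19 of 24. Their differences kept their sign throughout, from 3.36 to 3.94 for Mss51, 2.87 to 3.95 for Prima1, -1.66 to -0.57 for Bhlha15 and -0.64 to -0.23 for Arv1.

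The 19 genes next in order of p had adjusted p from 0.0743 to 0.297 and are given as values. Of the 24 genes in all, the TA effect was the larger in 20 and the soleus effect in 4. Effects of opposite sign were found in 12, whereas 60.5% of all genes had the same sign. A total of 20 passed the test in TA (2.83% of all genes) and 1 in soleus (0.0307%). Signal reached log2 5 in both muscles for 9 of the 24, in TA alone for 5, in soleus alone for 1 and in neither for 9. Over all 13009 genes these counts were 8477, 215, 192 and 4125. The 24 were chosen for the difference, of which both effects are part, so the counts of signs, sizes and tests are a description.

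**Figure D2:**
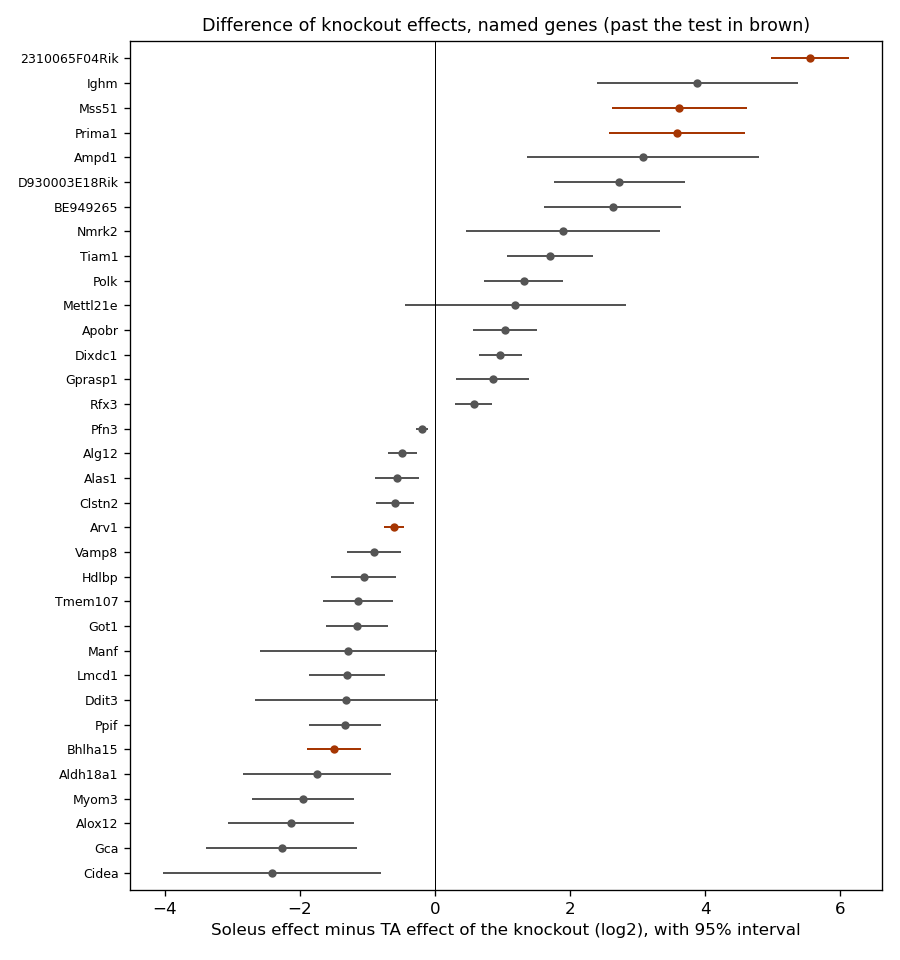
Soleus effect minus TA effect of the knockout (log2, points) with 95% intervals for the genes past the test of the difference (brown), the next in order of p and those past the test in soleus or at the extremes in TA. The values run from 5.55 for 2310065F04Rik to -2.41 for Cidea, and the intervals of Manf, Ddit3 and Mettl21e include 0.

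Among the 24, the genes with an effect mostly in soleus were Dixdc1, Alox12, Apobr and Clstn2. Dixdc1, known as a positive regulator of the Wnt pathway, gave 3.41, 3.44 and 3.61 in WT soleus and 4.65, 4.58 and 4.42 in KO soleus, and from 3.07 to 3.44 on the 6 TA arrays. KO and WT did not overlap in soleus and overlapped in TA. It rose in soleus by 1.06 (adjusted p = 0.00902) with a TA effect of 0.09, and the difference was 0.97 (SE 0.14, adjusted p = 0.0743). Dixdc1 lay under log2 5 on all arrays. Its other probe sets, which did not pass the filter on low signal, lay between 2.07 and 2.47 in all group means. Alox12, a lipoxygenase of arachidonic acid, gave 6.12, 5.90 and 5.13 in WT soleus, 3.97, 4.14 and 3.67 in KO soleus and at most 3.25 in TA, with a difference of -2.13 (SE 0.41, adjusted p = 0.294). A dimmer probe set of Alox12 below the filter lay between 2.50 and 2.52 in all group means. Apobr, a lipoprotein receptor of macrophages, differed by 1.04 and Clstn2, a cadherin-related membrane protein, by -0.59, both under log2 5 on all arrays. Apobr passed the filter through KO soleus alone.

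Genes with effects of opposite sign included Got1 and Ppif, both well above background. Got1, the cytosolic aspartate aminotransferase of the malate-aspartate shuttle, gave 12.96, 13.38 and 13.38 in WT soleus and 12.55, 12.83 and 12.80 in KO soleus. In TA it gave 12.84, 12.85 and 12.71 in WT and 13.22, 13.64 and 13.46 in KO. KO arrays were thus the lower in soleus and the higher in TA, with no overlap in either muscle. The soleus effect was -0.51 (adjusted p = 0.29), the TA effect 0.64 (adjusted p = 0.0454) and the difference -1.16 (SE 0.20, 95% interval -1.60 to -0.71, adjusted p = 0.193). Ppif, cyclophilin D of the mitochondrial permeability pore, gave 9.43, 10.13 and 9.91 in WT soleus, 9.33, 9.22 and 9.13 in KO soleus, 10.16, 10.13 and 9.89 in WT TA and 10.74, 10.93 and 10.71 in KO TA. Its KO arrays were also the lower in soleus and the higher in TA without overlap. The difference of Ppif was -1.33 (SE 0.23, adjusted p = 0.193). On another, dimmer probe set it was -0.13.

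Several of the 24 rose in KO TA with little effect in soleus. Myom3, which cross-links myosin in the M-band, gave 4.50, 4.27 and 4.30 in WT TA, 7.35, 6.58 and 6.22 in KO TA, 11.01, 10.86 and 10.83 in WT soleus and 11.26, 11.26 and 11.42 in KO soleus. The KO arrays were higher in both muscles without overlap, and KO TA lay between WT TA and soleus. Its difference was -1.95 (SE 0.33, adjusted p = 0.188). Lmcd1, a LIM domain transcription regulator of muscle, gave 11.13, 11.13 and 11.30 in WT TA, 12.36, 12.59 and 12.92 in KO TA and between 12.77 and 13.37 in soleus, a difference of -1.30 (adjusted p = 0.294). Vamp8, a SNARE of endosomal fusion (-0.91), Tmem107, a protein of the ciliary transition zone (-1.14), and Hdlbp, an RNA-binding protein (-1.06), had soleus effects from -0.15 to 0.27 and adjusted p of 0.294 to 0.295. Other probe sets differed by -1.27 and 0.18 for Tmem107 and by -1.18 to -0.26 for Hdlbp. Alg12, an ER mannosyltransferase of N-glycan assembly (-0.48), and Pfn3, a profilin (-0.19), lay under log2 5 throughout, and Pfn3 passed the filter through KO TA alone.

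Others fell in KO TA. Ighm, the immunoglobulin M heavy chain of B cells, gave 10.57, 10.65 and 11.03 in WT TA, 7.97, 7.47 and 6.28 in KO TA, 6.01, 6.46 and 5.11 in WT soleus and 6.85, 5.85 and 5.98 in KO soleus. The WT TA arrays stood above the other 9, and the difference was 3.88 (SE 0.66, adjusted p = 0.188), while 4 dimmer probe sets differed by -0.02 to 2.27. Of 14 lymphocyte markers 6 were tested, and 5 of these lay under log2 5 in all group means, Ighm being the exception. Tiam1, an activator of the GTPase Rac, differed by 1.70, Polk, a translesion DNA polymerase, by 1.31 and Rfx3, a transcription factor of cilia, by 0.57. The uncharacterized transcripts D930003E18Rik and BE949265 differed by 2.73 and 2.63, and both lay under log2 5 in soleus. BE949265 passed the filter through WT TA alone.

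The genes past the test in soleus numbered 4 (0.0307%), and for all of these the soleus effect was larger than that in TA. They were chosen for their soleus effect, which so runs large, and none of the 4 passed the test of the difference. Nmrk2, the muscle nicotinamide riboside kinase of NAD synthesis, gave 10.15, 9.11 and 11.20 in WT soleus and 13.65, 14.03 and 14.23 in KO soleus. In TA it gave 12.40, 12.14 and 13.26 in WT and 14.52 on all 3 KO arrays. KO arrays were higher in both muscles without overlap, and the KO levels of the muscles were closer together than the WT levels. The soleus effect of 3.82 (adjusted p = 0.0351) and the TA effect of 1.92 (adjusted p = 0.0549) differed by 1.89 (SE 0.64, 95% interval 0.47 to 3.32, adjusted p = 0.744). Gprasp1, which directs receptors to the lysosome, had effects of 1.29 and 0.43 (difference 0.86, interval 0.33 to 1.38, adjusted p = 0.553). Alas1, the first enzyme of haem synthesis, had effects of -0.81 and -0.25 (difference -0.56, interval -0.87 to -0.26, adjusted p = 0.465), and a dimmer probe set differed by -0.07. The count of 4 in soleus became 30 without WT soleus replicate 1, 10 without KO soleus replicate 2, 2 without KO TA replicate 2 and 1 without KO TA replicate 1 or 3 or any single WT TA array, and 360 with arrays weighted by their fit, where WT soleus replicate 2 had a weight of 4.66.

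In TA, KO and WT differed in 368 genes (2.83%), 185 higher (1.42%) and 183 lower (1.41%) in KO. The split was 218 and 148 on the table as deposited and 123 and 214 after median centring. The 5 genes of the difference were all among the 368 and made up 1.36% of them, and the 4 genes past the test in soleus were not among them. The 368 genes were then followed in the soleus arrays. These had no part in the TA difference itself but entered the normalization, the filter and the shared estimate of spread, and the count of 368 lay between 251 and 416 with single soleus arrays left out. Their soleus effect had the sign of the TA effect in 327 (88.9%), against 60.5% of all genes tested. Of the 185 higher genes 164 (88.6%) were higher in KO soleus too, with a median effect of 0.30 (quartiles 0.11 and 0.54) against 0.92 in TA. Of the 183 lower genes 163 (89.1%) were lower in KO soleus, with a median of -0.34 (quartiles -0.58 and -0.11) against -0.88 in TA. The TA medians are those of genes chosen for their TA effect and so run large. With signal at or above log2 5 in soleus, the soleus and TA medians were 0.33 against 0.90 over 163 higher genes. Over 145 lower ones they were -0.44 against -0.91. These genes too were chosen for their TA effect, and the part of background in the smaller soleus medians was not tested. The 95% interval of the difference included 0 for 164 of the 368. The 368 became 85 without KO TA replicate 2, 117 without KO TA replicate 3, 178, 204 and 242 without WT TA replicates 1, 2 and 3, and 56 without the arrays numbered 3, and the same-sign share ranged from 80.0% to 94.1% over the alternatives.

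Across all genes the knockout effects in the muscles, which share no array, had a Pearson r of 0.507 (13009 genes, which are not independent replicates). Over the 8477 genes at or above log2 5 in both muscles r was 0.568, and without the arrays numbered 3 it was 0.44. Equal numbers deviated together between the muscles of a genotype, which could raise these values and was not tested. A deviation common to all 4 groups at a number cancels in KO minus WT, because every group holds the same numbers.

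**Figure D3:**
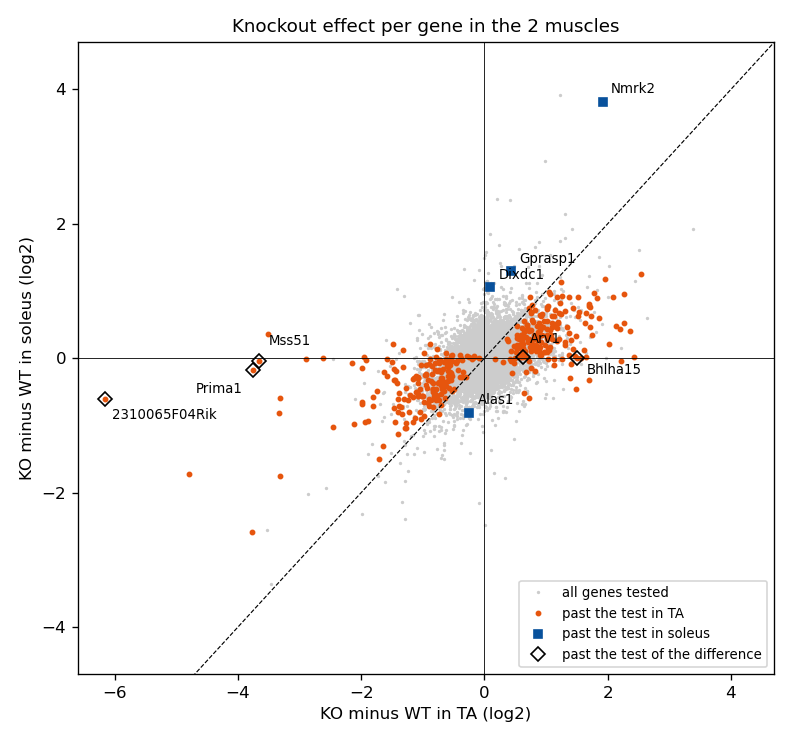
KO minus WT in TA (x axis, log2) against KO minus WT in soleus (y axis, log2) for the 13009 genes tested, with genes past the test in TA, in soleus and for the difference marked, and equal effects on the dashed line. Most of the 368 genes past the test in TA lie on the same side of 0 in soleus, at a smaller size, and 2310065F04Rik, Mss51 and Prima1 lie far to the left near a soleus effect of 0.

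The extremes of TA were chosen for their TA effect, which so runs large. Among them, several ER stress genes had smaller effects of the same sign in soleus, which did not pass the test there. Manf, an ER protein secreted under stress, gave 11.06, 10.10 and 9.94 in WT soleus, 10.93, 11.83 and 12.11 in KO soleus, 9.98, 9.60 and 9.06 in WT TA and 11.66, 12.66 and 11.93 in KO TA. KO and WT overlapped in soleus through replicate 1 of both groups and did not overlap in TA. The effects of 1.25 and 2.54 differed by -1.28 (interval -2.57 to 0.01, adjusted p = 0.863). Ddit3, the stress factor CHOP, had effects of 0.96 and 2.27, a difference of -1.31 (interval -2.65 to 0.03, adjusted p = 0.863). Aldh18a1, an enzyme of proline synthesis, had effects of 0.52 and 2.26, a difference of -1.74 (adjusted p = 0.567), and its dimmer probe sets differed by -1.03 to -0.01. Gca, a calcium-binding protein of white blood cells, and Cidea, a lipid droplet protein, differed by -2.27 and -2.41 (adjusted p 0.351 and 0.59), with soleus effects of -0.05 and 0.03, although a dimmer Gca probe set differed by -0.02.

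Among the lowest in TA, Ampd1, the AMP deaminase of muscle, gave 13.81, 13.94 and 13.69 in WT TA, 9.82, 7.44 and 9.78 in KO TA, 12.18, 12.74 and 12.30 in WT soleus and 11.16, 10.59 and 10.31 in KO soleus. KO arrays were lower in both muscles without overlap. The effects of -1.72 (adjusted p = 0.33) and -4.80 (adjusted p = 0.00536) differed by 3.08 (SE 0.76, interval 1.38 to 4.78, adjusted p = 0.465). Mettl21e, a lysine methyltransferase of muscle, also was lower in KO without overlap in both muscles, with effects of -2.58 (adjusted p = 0.157) and -3.77 (adjusted p = 0.00922). Its difference of 1.19 had an interval from -0.43 to 2.81.

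The 33 gene lists (22 pathways, 11 sets of cell type markers) are described by the counts and medians of the difference. Over all genes its median was 0.01, with 6303 genes negative and 6706 positive. Members past its test occurred in 3 lists, 1 in each: 2310065F04Rik of the fast fibre genes, Prima1 of the neuromuscular junction genes and Mss51 of the myogenic regulators. The median was negative in 20 lists and positive in 13. In bulk muscle, fewer cells of a type and less RNA per cell cannot be told apart.

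**Figure D4:**
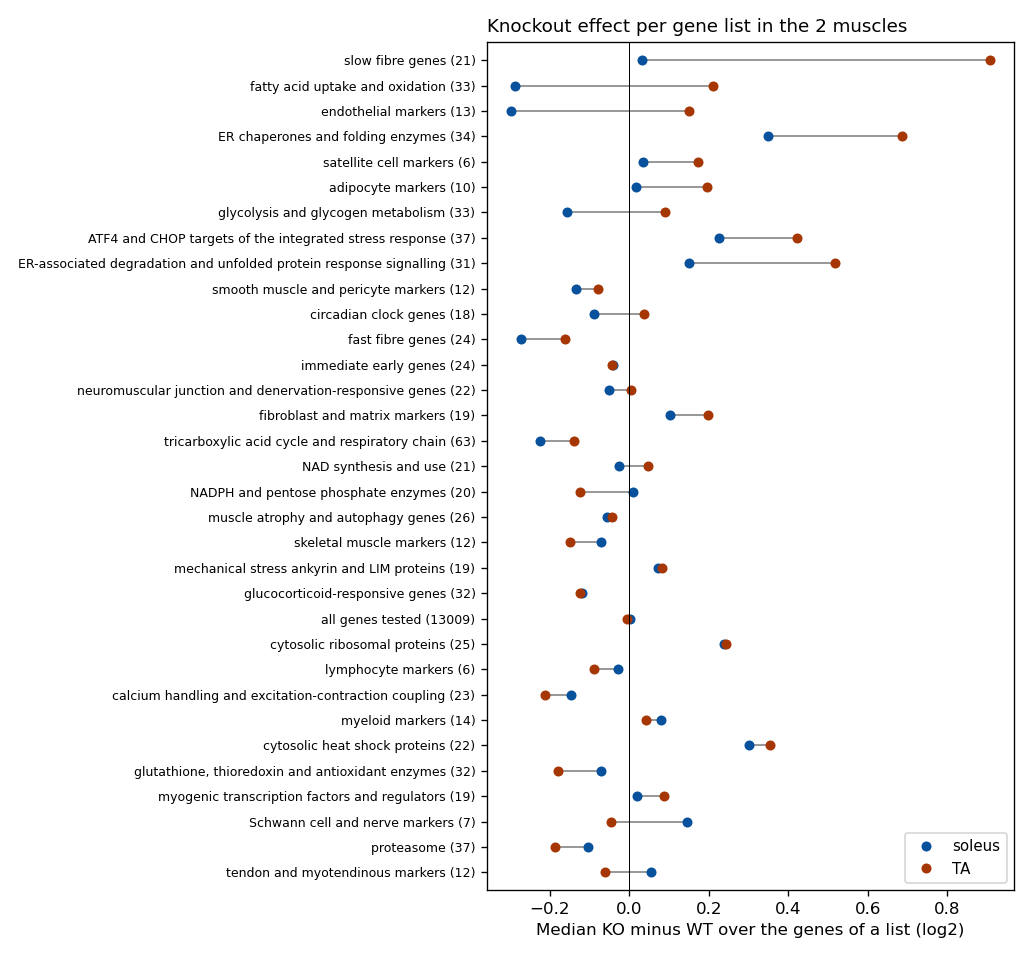
Median KO minus WT (log2) over the tested genes of each list with at least 5 (number in brackets), in soleus and in TA, ordered by the median difference of effects. Slow fibre, fatty acid, ER chaperone and endothelial lists lie at one end with the TA median above the soleus median, and tendon markers and the proteasome at the other.

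Slow fibre genes were higher in KO TA and close to WT in soleus, with 0 members past the limma test of the difference and 6 of 21 with an unadjusted p under 0.05 (5.71% of all genes). Of 21, 19 had a negative and 2 a positive difference, with a median of -0.52. The median effect was 0.03 in soleus and 0.91 in TA, where 20 of 21 were higher in KO (48.6% of all genes) and 1, Myom3, passed the test (1.42%). Several of the genes lay near the highest deposited value (16.36) in soleus, among them Myl3 (15.89 in KO, 15.93 in WT) and Myl2 (15.70 and 15.55). Whether a further rise could be measured there was not tested. Myh7 gave 7.11, 8.25 and 2.67 in WT TA and 8.04, 7.44 and 8.21 in KO TA, and lay between 15.23 and 15.54 on the soleus arrays. WT TA replicate 3 was far below the other TA arrays, and the difference of -2.01 had an interval from -5.44 to 1.43. The thin filament troponins Tnni1 (-1.58) and Tnnc1 (-1.47), the calcium pump Atp2a2 (-0.98) and the Z-disc protein Actn2 (-0.43), chosen after their values were seen, had intervals below 0 and adjusted p from 0.719 to 0.863. For each of these genes too, WT TA replicate 3 was the lowest WT TA array. It gave 4.86 for Tnni1 (7.04 and 6.83 on the other WT TA arrays) and 5.54 for Tnnc1 (6.92 and 7.44). For Atp2a2 it gave 8.69 (9.45 and 9.74) and for Actn2 13.39 (13.56 and 13.91). The positive differences of the list were those of Pln, the inhibitor of the pump Atp2a2 (0.85), and Casq2, the slow calsequestrin (0.19). The median was -0.26 without the arrays numbered 3 and -0.31 without WT TA replicate 3. It was -0.93 without KO soleus replicate 3 or WT TA replicate 2, -0.87 without WT soleus replicate 1 and -0.81 without KO TA replicate 2. In TA, markers of some other cells were also mostly higher in KO (48.6% of all genes were higher). These were 19 of 19 fibroblast and matrix markers, 12 of 13 endothelial and 8 of 10 adipocyte markers, of which Cidea alone passed the test in TA. The share was lower for satellite cell (4 of 6), myeloid (7 of 14), tendon (6 of 12) and Schwann cell markers (3 of 7). It was also lower for smooth muscle (5 of 12), lymphocyte (1 of 6) and erythroid markers (0 of 4). Of the skeletal muscle markers 3 of 12 were higher in KO TA, with a median effect of -0.15. The adipocyte level was -0.40, -0.35 and -0.41 in KO TA and -0.89, -0.67 and -0.84 in WT TA, without overlap, whereas the fibroblast level overlapped through KO TA replicate 2 (-0.54). The part of these cells in the TA effects of the slow fibre and ER chaperone lists was not tested.

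Fast fibre genes had a median effect of -0.27 in soleus, with 6 of 24 higher in KO, and -0.16 in TA, with 4 higher. Of 24, 13 had a negative and 11 a positive difference, with a median of -0.14, which turned positive (0.04) without WT soleus replicate 2.

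Genes of fatty acid uptake and oxidation had a negative median effect in soleus and a positive one in TA. Of 33, 30 had a negative difference and 3, Cpt1a, Ppard and Acsl3, a positive one, with a median of -0.48. In the limma test of the difference 0 passed, and 11 of 33 had an unadjusted p under 0.05 (5.71% of all genes). The median effect was -0.29 in soleus, where 6 of 33 were higher in KO (51.1% of all genes) and 0 passed the test. It was 0.21 in TA, where 21 were higher (48.6% of all genes) and 2, Acaa2 and Hadh, passed it (1.42%). The level of the list on an array, the median over its genes of the log2 signal less each gene's mean, was 0.16, 0.43 and 0.59 in WT soleus and 0.02, 0.25 and 0.20 in KO soleus. In TA it was -0.50, -0.42 and -0.20 in WT and -0.36, 0.01 and 0.00 in KO. KO and WT overlapped in both muscles. Between arrays of equal number KO was lower than WT in soleus and higher in TA for all 3 numbers. The labels do not pair KO with WT arrays, so this order is a description. The KO groups lay closer together than the WT groups. The median difference ranged from -0.64 to -0.40 with single arrays left out.

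**Figure D5:**
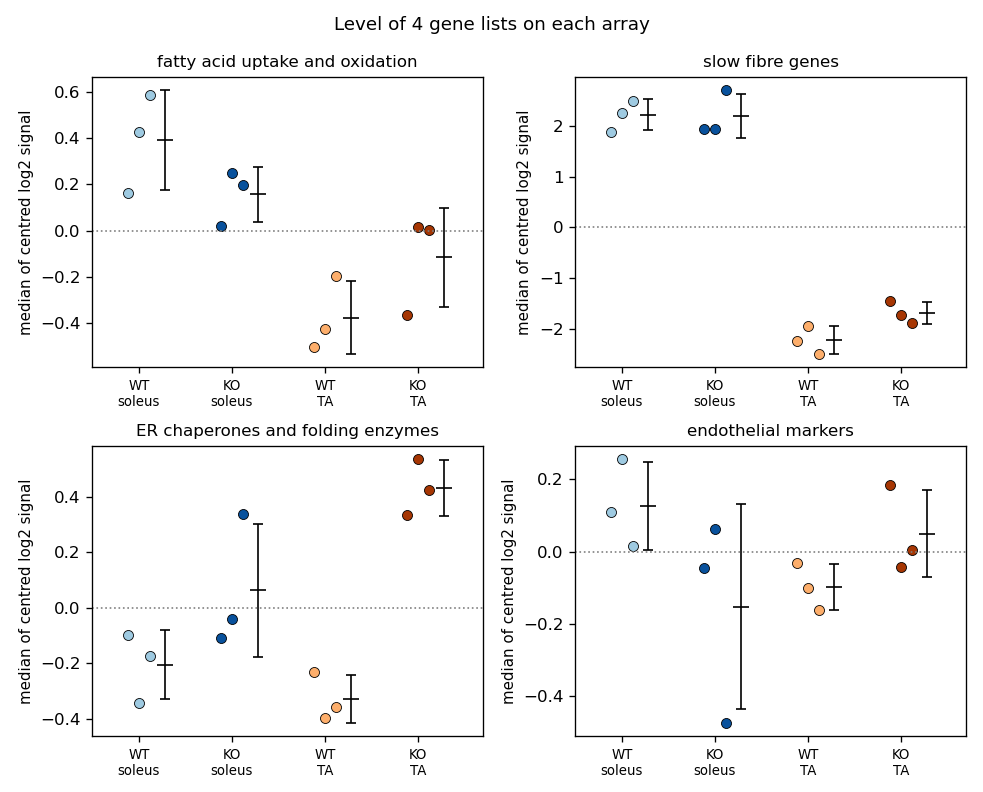
Level of 4 gene lists on each array, as the median over genes of the log2 signal less the gene's mean over the 12 arrays (points, with group means). For the fatty acid list WT soleus spans 0.16 to 0.59 and KO soleus 0.02 to 0.25, whereas WT TA spans -0.50 to -0.20 and KO TA -0.36 to 0.01.

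Members at successive steps of the pathway had negative differences. Slc27a1, a fatty acid transporter of the plasma membrane, gave 6.77, 7.49 and 7.39 in WT soleus, 6.79, 6.89 and 6.86 in KO soleus, 6.31, 6.05 and 6.58 in WT TA and 7.20, 7.38 and 6.88 in KO TA. KO TA lay above WT TA without overlap, and the difference was -1.22 (SE 0.31, interval -1.91 to -0.52, adjusted p = 0.502), while a second probe set differed by -0.63. Acaa2, the mitochondrial thiolase that ends each round of oxidation, gave 12.08, 12.46 and 12.67 in WT soleus, 12.17, 12.12 and 12.36 in KO soleus, 11.26, 11.30 and 11.47 in WT TA and 11.97, 12.18 and 12.35 in KO TA. KO TA reached the range of the soleus arrays. Its difference was -1.01 (SE 0.22, interval -1.49 to -0.53, adjusted p = 0.351), and 2 dimmer probe sets differed by -1.03 and -1.20. Cd36, the fatty acid translocase (-0.66), Slc25a20, the mitochondrial carnitine carrier (-0.70), Acadl and Acadvl, acyl-CoA dehydrogenases (-0.73 and -0.70), and Hadha, of the trifunctional protein (-0.79), were chosen after their values were seen. Their intervals lay below 0, with adjusted p from 0.744 to 0.811.

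The tricarboxylic acid cycle and respiratory chain list had a difference nearer to that of all genes. Of 63, 43 had a negative difference, with a median of -0.04, and medians of -0.23 in soleus and -0.14 in TA. Ogdh and Dlst, subunits of the 2-oxoglutarate dehydrogenase complex, differed by -0.72 and -0.48 (adjusted p = 0.863 for both). In glycolysis and glycogen metabolism 25 of 33 had a negative difference, with a median of -0.24. Pfkfb2 (-1.21) and Pfkfb3 (1.15), kinases that set fructose 2,6-bisphosphate, had the largest differences there, and both intervals included 0.

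ER chaperones and folding enzymes had positive median effects in both muscles, and in TA 12 of 34 rose past the test (1.42% of all genes did). The median was 0.69 in TA, with 31 of 34 higher in KO (48.6% of all genes), and 0.35 in soleus, with 30 higher (51.1% of all genes) and 0 past the test. The difference was negative in 25 and positive in 9, with a median of -0.45, and 0 members passed its test while 8 of 34 had an unadjusted p under 0.05 (5.71% of all genes). The list's level was 0.34, 0.53 and 0.42 in KO TA and -0.23, -0.40 and -0.36 in WT TA, against -0.11, -0.04 and 0.34 in KO soleus and -0.10, -0.34 and -0.17 in WT soleus. KO and WT overlapped in soleus, where KO replicate 3 stood above the other arrays, and did not overlap in TA. Without it the soleus median was 0.18 and the median difference -0.60, and with single arrays left out the difference ranged from -0.60 to -0.34. Sdf2l1, a partner of the chaperone Hspa5, gave 3.76, 3.80 and 3.98 in WT soleus, 3.69, 4.09 and 5.09 in KO soleus, 3.86, 3.64 and 3.52 in WT TA and 5.15, 6.44 and 6.01 in KO TA. Its difference was -1.76 (interval -2.91 to -0.60, adjusted p = 0.59). Fkbp11, a prolyl isomerase of the ER, had effects of -0.29 and 1.38, a difference of -1.67 (adjusted p = 0.376).

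The other stress lists had medians nearer to 0. In the list of ER-associated degradation and unfolded protein signalling the median effect was 0.15 in soleus and 0.52 in TA, with 20 of 31 differences negative (median -0.17). Ern1, the stress sensor IRE1, differed by -1.18 with an interval from -3.58 to 1.21. The targets of ATF4 and CHOP, factors of the integrated stress response, had medians of 0.22 and 0.42, with 27 of 37 differences negative (median -0.22). Mthfd2, a mitochondrial folate enzyme, differed by -1.46 (interval -4.02 to 1.11). Aldh1l2, another mitochondrial folate enzyme and a member of the NADPH list, had effects of -0.46 and 1.49, a difference of -1.95 (interval -2.85 to -1.05, adjusted p = 0.322). Cytosolic heat shock proteins had medians of 0.30 and 0.35 and cytosolic ribosomal proteins 0.24 in each muscle.

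Some lists had positive medians. Of 37 proteasome genes 27 had a positive difference (median 0.17), with medians of -0.10 in soleus and -0.19 in TA, among them Psme4, a proteasome activator, with effects of -0.50 and -1.11 (difference 0.61, adjusted p = 0.744). Of the mechanical stress proteins, Ankrd1 gave 6.72, 5.93 and 4.47 in WT soleus, 8.93, 9.29 and 10.65 in KO soleus, 8.10, 8.74 and 6.72 in WT TA and 9.03, 8.69 and 9.54 in KO TA. KO and WT did not overlap in soleus, and overlapped in TA, yet the difference of 2.68 (SE 0.96, interval 0.55 to 4.82) had an adjusted p of 0.788. In the glucocorticoid-responsive list 15 of 32 differences were negative, with medians of -0.12 in soleus and -0.13 in TA. Gadd45g, a growth arrest gene, had effects of -0.99 and -2.11 (difference 1.13, adjusted p = 0.762), and Cdkn1a, a cell cycle inhibitor, differed by -1.18 (adjusted p = 0.9).

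No marker of another cell type passed the test of the difference. All 13 tested of 14 endothelial markers had a negative difference, with a median of -0.46, and medians of -0.30 in soleus and 0.15 in TA. Of the 13, 0 passed the limma test and 1 had an unadjusted p under 0.05 (5.71% of all genes). Pecam1, an adhesion molecule of endothelium, gave 9.67, 9.63 and 8.95 in WT soleus, 9.17, 9.21 and 8.70 in KO soleus, 8.73, 8.22 and 8.39 in WT TA and 8.79, 8.87 and 8.85 in KO TA (difference -0.79, interval -1.47 to -0.10, adjusted p = 0.816). Kdr, a receptor of vascular endothelial growth factor, differed by -0.56 (interval -1.68 to 0.57). The summed linear signal of the endothelial markers was 5089 to 6345 in WT soleus, 3972 to 5329 in KO soleus, 4261 to 4787 in WT TA and 4760 to 5251 in KO TA, and 0 of the 13 lay under log2 5 in all groups. Without KO soleus replicate 3 the median was -0.30, with 11 negative. The endothelial difference had the sign of that of the fatty acid and slow fibre lists, and its part in them was not tested.

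Tendon and myotendinous markers lay on the positive side. Of 12, 9 had a positive difference, with a median of 0.32, which ranged from 0.05 without KO soleus replicate 1 to 0.59 without KO TA replicate 1. Their summed signal was 15648 to 19627 in WT soleus, 13782 to 21586 in KO soleus, 10264 to 11883 in WT TA and 6469 to 15018 in KO TA. Thbs4, a thrombospondin of tendon and muscle junctions, gave 11.45, 11.61 and 11.50 in WT TA, 10.48, 9.24 and 10.11 in KO TA and between 10.76 and 11.69 in soleus, a difference of 1.56 (interval 0.61 to 2.51, adjusted p = 0.553). Of 10 adipocyte markers 7 had a negative difference (median -0.26), and Adipoq, the adipocyte hormone adiponectin, differed by -0.99 (interval -4.29 to 2.32). Skeletal muscle markers had a median of -0.00, with 6 of 12 negative. Fibroblast and matrix markers had a median of -0.11, smooth muscle and pericyte markers -0.16, satellite cell markers -0.29, Schwann cell and nerve markers 0.12, myeloid markers 0.06 and lymphocyte markers 0.03, with no member past the test.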

How the data were processed

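The deposited table holds log2 signal of 45101 probe sets on 12 one-colour Affymetrix arrays (0.89 to 16.36). MAS5 is named, per the submitters' processing notes, with no version or role, and how probes were summarised is not stated there, so the deposited log2 values were used as they are. Trimmed array means differed by up to 1.11 times, and quantile normalization was applied. A probe set was kept (27497 were) if above its array's 40th percentile (log2 2.76) on at least 3 arrays. Per symbol the brightest kept probe set was tested, giving 13009 genes, and 5643 genes had further ones. Per the platform annotation, 34945 probe sets had 1 symbol, 932 several and 9160 none, besides 64 controls.

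The fit used limma 3.58.1 in R 4.3.3 (lmFit on 4 group means over all arrays, eBayes with a variance trend, 2-sided, Benjamini-Hochberg over all genes, threshold 0.05), checked on simulated data. The number of arrays limits the precision. Group means under log2 5 were called near background. The p-values measure the spread between these samples.

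The members and lists were chosen with earlier results of these data known. Named genes are H6pd, up to 15 highest and 15 lowest past the test of the difference, genes of smallest p until 24, those past the test in soleus, the 6 highest and 6 lowest past it in TA, and, for a list, at most 4 members that pass or else the 2 largest.

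Equal replicate numbers deviated together between the muscles of a genotype (r of deviations from group means 0.43 to 0.59 in KO and 0.14 to 0.59 in WT, against -0.44 to 0.10 and -0.51 to 0.35 for unequal numbers). All exceeded the limit of 0.1, so fits with a block for the number, or for genotype and number, are given. The pairing was read from these values and is not in the labels, and KO against WT soleus fell short at number 2 (0.09). Other alternatives were other normalizations, filters, a pseudocount of 16, other probe set rules, variance settings, array weights and left-out arrays.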

Additional observations from a re-analysis of the deposited data

Results flagged for a closer look

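The effect of the knockout differed between soleus and TA by a test of the difference itself (limma, adjusted over all genes) in 5 genes. The difference, soleus effect minus TA effect on the log2 scale, was 5.55 for 2310065F04Rik (adjusted p = 1.04e-05), 3.61 for Mss51 (0.0289), 3.59 for Prima1 (0.0289), -1.50 for Bhlha15 (0.0223) and -0.61 for Arv1 (0.0116). In each of them the KO and WT arrays did not overlap in TA (23.2% of all genes did not). The TA effect is part of the difference and all 5 also passed the test in TA, so this is a description and no added support. In 4 of them soleus signal lay under log2 5 in both genotypes, so that a soleus effect could not be measured well, and 2, Bhlha15 and Arv1, lay under it in TA too. Bhlha15 passed the filter on low signal only through the KO TA arrays, where it is high.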

How the results depend on the processing

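The count of 5 genes with a difference of effects became 3 with no low-signal filter, 1 with a mean above log2 5 required, 8 with every probe set tested, 1 without a variance trend, 10 with array weights, 3 with the replicate block for genotype and number and 8 without the arrays numbered 3. Leaving out single arrays gave 1 to 20. On median-centred arrays 4 of 5 were positive. The soleus count of 4 became 7 median centred (4 higher, 3 lower), 1 unfiltered, 1 with the mean of probe sets, 2 without a trend, 1 with a robust trend and 360 with array weights, and 1 to 30 with single arrays left out. The TA count of 368 became 913 with the replicate number as a block and 56 without the arrays numbered 3, and 85 to 416 with single arrays left out. The differences of Sod3 (0.0035 with values under log2 5 set to 5), Adipoq (0.21 without WT TA replicate 3, range -1.80 to 0.21 with single arrays left out) and Cd68 (-0.18 without KO soleus replicate 3, range -0.18 to 1.88) changed sign, and none of these 3 passed the test there. Of the other values of named genes under the alternatives, 2134 kept their direction and side of the threshold, 26 came to pass it and 40 no longer did. Most of the 2134 belong to genes that did not pass in the main fit, so this count does not measure how stable the calls were. The 40 lost calls were those of Mss51 (13), Prima1 (14), Bhlha15 (8) and Arv1 (5). The causes were not tested. Signal under log2 5, where 4125 genes lay in both muscles, limits what can be measured.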

Other observations

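Among probe sets without a gene symbol, which were left out of the gene tests, none passed the test of the difference. The smallest adjusted p was 0.0597, for a probe set which averaged 11.17 in WT soleus, 10.28 in KO soleus, 14.13 in WT TA and 11.39 in KO TA, a difference of 1.85 (SE 0.24).

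Immediate early genes and circadian clock genes, which respond within hours, had no member past the test of the difference. Of 24 immediate early genes 16 had a negative difference (median -0.13), and of 18 clock genes 14 (median -0.15). Egr3, an early growth response factor, differed by 1.33 (interval -1.42 to 4.08), Ier3, an early response gene, by 1.05 (SE 0.43, adjusted p = 0.824) and Nr1d1, the clock repressor REV-ERB alpha, by -1.10 (interval -3.00 to 0.80). Antioxidant enzymes had 22 of 32 positive differences (median 0.10), and Sod3, the extracellular superoxide dismutase, differed by -0.76 (interval -2.17 to 0.66). Of 26 atrophy and autophagy genes 13 were negative, and Fbxo32, the ubiquitin ligase atrogin-1, differed by -0.98 (interval -3.09 to 1.13). In the list of calcium handling and excitation-contraction coupling 15 of 23 genes had a positive difference (median 0.05), and Trdn, the junctional protein triadin, had effects of 0.26 and -0.24, a difference of 0.50 (interval 0.18 to 0.82, adjusted p = 0.572). Sirt5, a mitochondrial desuccinylase of the NAD list, had effects of 0.05 and 0.93, a difference of -0.88 (interval -1.52 to -0.23, adjusted p = 0.719).

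The myeloid markers S100a9 and Cd68 differed by 1.46 (interval -0.83 to 3.75) and 1.06 (interval -2.17 to 4.29). Cd68, a lysosomal protein of macrophages, gave 5.60, 5.58 and 5.58 in WT soleus and 5.56, 6.39 and 9.68 in KO soleus, so that its soleus effect rests on KO soleus replicate 3.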
